A study of Mus musculus with 50 samples.

Results

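Fatty acid uptake and oxidation in the gastrocnemius, the large calf muscle of the mouse, was followed through 37 genes, a fixed list of symbols that takes a fatty acid from the blood to acetyl-CoA in the mitochondrion. All 37 were found among the 23880 genes of the deposited tables, and all 37 passed the filter on low counts together with 12586 genes in all. RNA was sequenced from 50 male wild-type C57BL/6JRj mice, with 8 mice for the ages of 8, 18, 22 and 24 months, 9 mice for 26 and for 28 months, and 1 library for every mouse. All mice came from a supplier's ageing colony, were housed singly, and ill mice or mice with tumors were left out by the authors. All ate the purified AIN93M diet before muscles were taken, but mice of 8 and 18 months had done so for at least 2 months and mice of 22 to 28 months from about 18 months of age on. Age and feeding history therefore cannot be told apart where mice of 22 to 28 months are compared with mice of 8 months. Mice of 28 and 22 months share 1 schedule, but the older ones had eaten the diet longer, so time on it stays tied to age.

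Working muscle takes fatty acids from circulating triglyceride through lipoprotein lipase (Lpl), which Angptl4 inhibits, and moves them across the membrane and the cytosol with Cd36, Slc27a1 and Fabp3. Acyl-CoA synthetases (Acsl) activate them, and the carnitine shuttle of Cpt1 and Cpt2 carries the acyl group into the mitochondrion. Cpt1 is blocked by malonyl-CoA, which Acacb makes and Mlycd removes. Beta oxidation then shortens the chain in repeated rounds of dehydrogenation, hydration, a second dehydrogenation and thiolysis, with the first electrons leaving through the electron transfer flavoprotein (Etfa, Etfb and Etfdh). Pdk4 switches off pyruvate dehydrogenase and so favors fat over glucose, and Pnpla2 and Lipe release fatty acids from the triglyceride stored in the cell. Slow, oxidative fibers are known to rely more on this pathway than the fast fibers that make up most of the gastrocnemius.

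The pathway was well expressed at every age, with the 37 genes together holding 0.559% to 1.53% of all TPM in a mouse (TPM, the length-scaled unit of transcript abundance, allows levels of different genes to be compared). At 8 months the highest mean level was that of Fabp3, the cytosolic fatty acid carrier, at 1012 ± 422 TPM (SD, n = 8), followed by Pdk4 at 929 ± 413 TPM, and the ranges of both overlapped. Hadhb (681 ± 121 TPM) and Acadm (573 ± 86.6 TPM) led the enzymes of beta oxidation, and Acsl5 was lowest at 4.08 ± 0.370 TPM. In this order from high to low, every gene overlapped its next neighbor in range except at 2 places, below Slc27a1 (68.9 ± 11.0 TPM) and below Acaa1a (44.0 ± 2.32 TPM). Counts of the members in a mouse ran from 36 reads (Angptl4) to 117686 (Pdk4), in libraries of 13607229 to 21267375 counted reads. Counting error (1 over the root of the mean count) was 0.473% to 9.92% of the level over the 222 sets of 1 gene at 1 age and lay below the coefficient of variation between mice in 221 of them. The exception was Acsl5 at 8 months, with a counting error of 7.35% and a variation of 5.82%.

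Nuclear receptors of the PPAR and estrogen-related receptor (Esrra) groups are known to regulate part of this pathway, and their elements are built on the letters AGGTCA. In the RefSeq table for GRCm38.p6 with 250 bases before and 50 after each start site, 32 of the 37 members had a promoter. The estrogen-related receptor element TCAAGGTCA, searched on both strands, stood in the promoter of 1 member, Acsl6, and in 0.466% of 27025 genes. The direct repeat of AGGTCA with 1 base between stood in 0 members and in 0.0481% of genes. The single AGGTCA, searched on both strands and contained in both longer motifs, stood in 8 of 32 members (25%: Acacb, Acadm, Acadvl, Acsl6, Cd36, Cpt1a, Echs1 and Ucp3), beside 18.1% of genes. A match describes letters in this window and not a site in use. Shown here are the promoters of Acsl6, the member with the lowest FDR at 28 against 8 months, of Acadm, a classical target of these receptors, and of Ucp3, which moved with Pdk4 from mouse to mouse. Capitals mark the motif on either strand.
Acsl6, chr11:54303574-54303873, plus strand: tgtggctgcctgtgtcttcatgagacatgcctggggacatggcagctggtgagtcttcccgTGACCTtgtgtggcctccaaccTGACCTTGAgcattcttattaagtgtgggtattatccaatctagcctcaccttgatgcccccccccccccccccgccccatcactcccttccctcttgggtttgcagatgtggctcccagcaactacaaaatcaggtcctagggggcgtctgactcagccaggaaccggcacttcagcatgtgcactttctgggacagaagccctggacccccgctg
Acadm, chr3:153944594-153944893, minus strand: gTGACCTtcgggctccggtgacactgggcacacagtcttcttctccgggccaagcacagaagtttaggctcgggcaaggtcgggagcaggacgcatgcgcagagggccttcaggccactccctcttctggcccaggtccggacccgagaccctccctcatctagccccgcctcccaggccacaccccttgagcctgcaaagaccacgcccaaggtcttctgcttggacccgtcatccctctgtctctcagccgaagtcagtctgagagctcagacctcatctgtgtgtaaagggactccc
Ucp3, chr7:100472741-100473040, plus strand: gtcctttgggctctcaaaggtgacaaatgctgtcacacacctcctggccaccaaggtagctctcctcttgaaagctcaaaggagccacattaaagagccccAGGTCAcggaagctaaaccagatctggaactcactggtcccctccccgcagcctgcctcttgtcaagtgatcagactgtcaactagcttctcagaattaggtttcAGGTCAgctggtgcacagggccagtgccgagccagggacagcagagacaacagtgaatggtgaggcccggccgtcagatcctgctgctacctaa

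Against 8 months, no member was called up to 24 months, and at 28 months several oxidation enzymes were lower and a small group of lipid-handling genes was higher. Read counts scaled to library size with TMM factors (CPM) were compared in 1 edgeR fit over the 6 ages, and a gene was called at a false discovery rate (FDR) below 0.01 over all 12586 genes. Called members numbered 0 of 37 at 18, 22 and 24 months, beside 0.0715%, 0.0397% and 0.612% of all genes. For these ages DESeq2 called 0, 0 and 1 members, and an unadjusted p under 0.05 was reached by 1, 0 and 4. At 26 months 2 members were called, Acsl6 and Pnpla2, both higher, beside 18.4% of all genes (9.84% higher and 8.55% lower). At 28 months 13 members were called (35.1%), beside 39.6% of all genes. Of these, 9 were lower (24.3% of members, beside 18.7% of all genes) and 4 were higher (10.8%, beside 21% of all genes), and the median log2 fold change was -0.17 over the members and 0.01 over all genes. These shares lie near those of all genes, so the counts set nothing apart about the list as a whole.

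Against 22 months, on the same feeding schedule, 11 members were called at 28 months (29.7%, beside 27.7% of all genes), 6 of them lower and 5 higher, beside 11.5% and 16.2% of all genes. The lower ones were Acads, Acaa2, Cpt2, Acadm, Decr1 and Acaa1a, and the higher ones Acsl6, Acot2, Pnpla2, Acacb and Echs1. This count moved with single mice and reached 5 to 7 without replicate 2, 4, 5, 6, 7 or 8 of 22 months or replicate 1, 2, 5, 8 or 9 of 28 months, while it was 16 without replicate 3 of 28 months. Neighboring old ages were not separated, with 0 members called by edgeR or DESeq2 between 24 and 26 months (unadjusted p under 0.05 in 8 members) and between 26 and 28 months (in 6 members), where edgeR also called 0% of all genes.

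**Figure D1:**
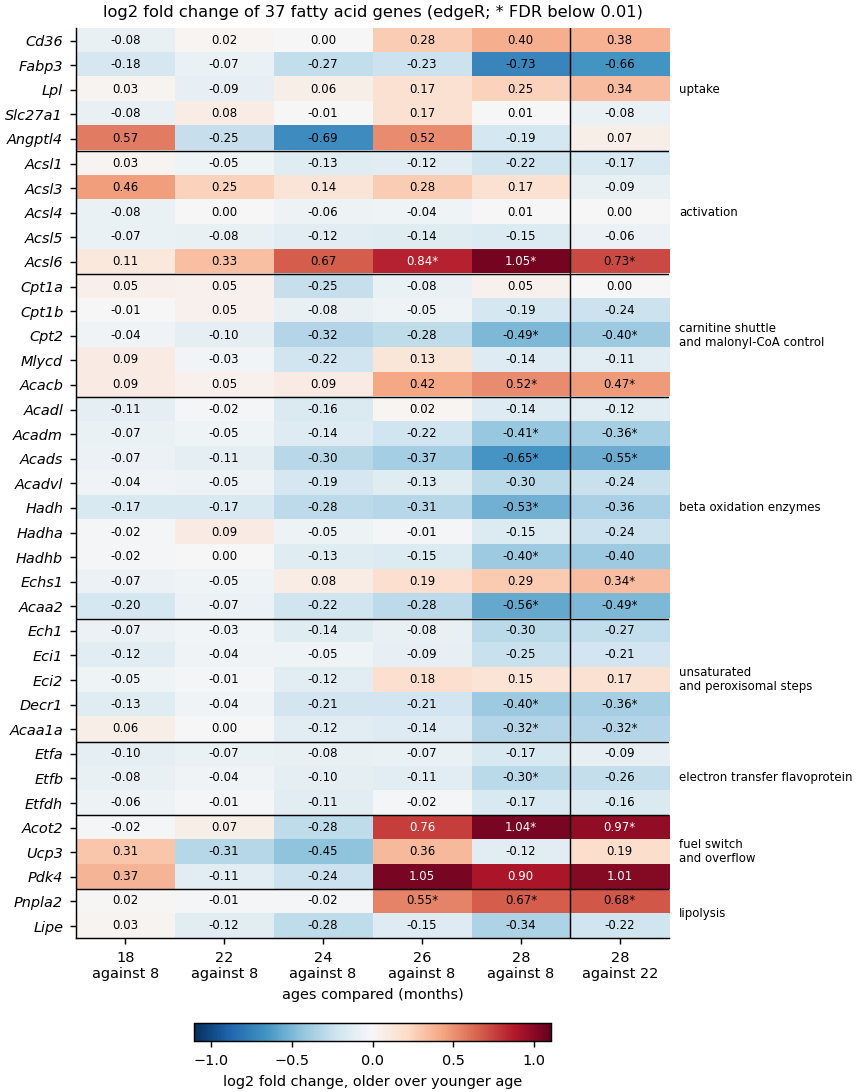
Log2 fold change of each of the 37 genes (rows, grouped by role) in 6 comparisons of ages (columns), from 1 edgeR fit, with red for higher and blue for lower at the older age and an asterisk for FDR below 0.01. Columns for 18, 22 and 24 months hold no asterisk, and the column for 28 against 8 months holds 13, of which 9 are lower.

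Some libraries stand apart and touch several members. Replicate 3 of 8 months was the highest of its age in many oxidation genes, and without it 9 members were called in place of 13: Acadm, Acaa2, Hadhb, Decr1 and Etfb lost the call and Echs1 gained it, which left 4 lower and 5 higher, beside 16.7% and 19.4% of all genes. Replicate 2 of 28 months had the lowest summed level of 10 skeletal muscle fiber markers (134900 TPM, beside 167100 to 204400 TPM in the other 8) and the highest sum of 8 macrophage markers (751 TPM, beside 271 to 412 TPM). Without it 11 members were called, and Acot2 and Etfb lost the call. Skeletal muscle fiber markers were high in every mouse, at 134900 to 204400 TPM in sum. The muscle holds several cell types, and in such bulk samples fewer cells of a type and less RNA per cell cannot be told apart.

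The enzymes of mitochondrial beta oxidation were lower at 28 months in 5 of 9 genes (55.6%, beside 18.7% of all genes) and higher in 0 (beside 21%; median log2 fold change -0.40, beside 0.01 over all genes). Without replicate 3 of 8 months 2 of the 9 were lower, Acads and Hadh, and 1 higher, Echs1. Against 22 months 3 were lower and 1 higher (33.3% and 11.1%, beside 11.5% and 16.2% of all genes), and 1 to 5 were lower when single mice were left out. The largest difference was in Acads, the short-chain acyl-CoA dehydrogenase (ENSMUSG00000029545, chromosome 5, 115110299 to 115119346). The lowest, median and highest Acads levels were 78.9, 95.6 and 115 CPM at 8 months, 73.5, 89.9 and 108 CPM at 18 months and 73.0, 87.7 and 117 CPM at 22 months. The corresponding Acads values were 59.3, 80.2 and 88.9 CPM at 24 months, 42.9, 76.2 and 94.8 CPM at 26 months and 34.1, 59.2 and 98.8 CPM at 28 months. Of the 9 mice of 28 months, 7 lay below every mouse of 8 months, although the highest reached into the upper part of the 8-month range. The difference was called against 8 months (log2 fold change -0.65 ± 0.14 (SE), edgeR FDR 0.000129) and against 22 months (log2 fold change -0.55 ± 0.14 (SE), edgeR FDR 0.00165).

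Acadm, the medium-chain acyl-CoA dehydrogenase (ENSMUSG00000062908, chromosome 3, 153922357 to 153944632), fell less steeply. From the lowest mouse over the median to the highest, Acadm stood at 353, 396 and 592 CPM at 8 months, 323, 398 and 472 CPM at 18 months and 355, 402 and 476 CPM at 22 months. Later it stood at 277, 386 and 442 CPM at 24 months, 234, 364 and 429 CPM at 26 months and 219, 313 and 414 CPM at 28 months. Between 8 and 24 months the medians stayed within a narrow band, and at 28 months 7 of 9 mice lay below the 8-month range. Its log2 fold change was -0.41 (edgeR FDR 0.00214) against 8 months and -0.36 (edgeR FDR 0.00878) against 22 months. The long-chain and very-long-chain dehydrogenases were not called, with log2 fold changes at 28 against 8 months of -0.14 (edgeR FDR 0.404) for Acadl and -0.30 (edgeR FDR 0.0208) for Acadvl.

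Hadh, the hydroxyacyl-CoA dehydrogenase for short and medium chains (ENSMUSG00000027984, chromosome 3, 131233419 to 131272101), had lower medians at each successive age except between 24 and 26 months. In the order lowest, median and highest, Hadh levels were 180.1, 199 and 290.2 CPM at 8 months, 145, 192 and 227 CPM at 18 months and 146, 187 and 237 CPM at 22 months. In older mice Hadh levels were 127, 178 and 211 CPM at 24 months, 121, 180.3 and 197 CPM at 26 months and 104, 141 and 208 CPM at 28 months. At 28 months 7 of 9 mice lay below the lowest mouse of 8 months (log2 fold change -0.53 ± 0.12 (SE), edgeR FDR 0.000203), whereas the difference from 22 months missed the threshold (-0.36 (edgeR FDR 0.0113)). Acaa2, the mitochondrial ketoacyl-CoA thiolase that releases acetyl-CoA, had its lowest median at 28 months. Acaa2 had lowest, median and highest levels of 135, 171 and 294 CPM at 8 months, 114, 157 and 202 CPM at 18 months and 129.7, 172 and 234 CPM at 22 months. For the older groups these were 96.7, 157 and 196 CPM at 24 months, 85.2, 157 and 184 CPM at 26 months and 71.5, 115 and 179.5 CPM at 28 months. The highest Acaa2 value of 8 months belongs to replicate 3. Acaa2 was called against 8 months (log2 fold change -0.56 ± 0.16 (SE), edgeR FDR 0.0025) and against 22 months (log2 fold change -0.49 ± 0.16 (SE), edgeR FDR 0.0098), and without replicate 3 of 8 months its log2 fold change was -0.43, edgeR FDR 0.0176.

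Hadha and Hadhb encode the subunits of the trifunctional protein, which carries out the last steps for long chains, and lie head to head on chromosome 5 (Hadha, 30118304 to 30155162; Hadhb, 30155248 to 30184593), with 85 bases between them. The lowest, median and highest Hadhb levels were 503, 577 and 859.9 CPM at 8 months, 512, 598 and 736 CPM at 18 months and 519, 608 and 786 CPM at 22 months. The corresponding Hadhb values were 408, 567.6 and 671 CPM at 24 months, 325, 524 and 722 CPM at 26 months and 301, 459.9 and 584 CPM at 28 months. Of the mice of 28 months, 5 of 9 lay below the 8-month range, and Hadhb was called against 8 months (log2 fold change -0.40 ± 0.13 (SE), edgeR FDR 0.0072) but not against 22 months (-0.40 (edgeR FDR 0.0101)). Hadhb kept its call against 8 months in some alternatives only, and its FDR stands close to the threshold. Hadha ranged over 309.8 to 477 CPM at 8 months and 251 to 429 CPM at 28 months, with a log2 fold change of -0.15 (edgeR FDR 0.294). Within each mouse the log2 ratio of Hadhb to Hadha differed by -0.27 on the log2 scale (exact permutation p = 0.000494, adjusted over 12 ratio tests 0.00234) between 28 and 8 months, lower than the 8-month mean in 9 of 9 mice. Against 22 months it differed by -0.18 on the log2 scale (exact permutation p = 0.00522, adjusted over 12 ratio tests 0.00697), and 8 of 9 mice were lower. All pairs of genes for ratios, here and below, were chosen after the members' values were known, so their p-values add no separate support.

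Echs1, the enoyl-CoA hydratase of the second step (ENSMUSG00000025465, chromosome 7, 140105710 to 140116476), was the only one of the 9 enzymes with a positive log2 fold change. From the lowest mouse over the median to the highest, Echs1 stood at 96.9, 102 and 133 CPM at 8 months, 88.6, 106 and 119 CPM at 18 months and 86.8, 102 and 127 CPM at 22 months. Later it stood at 102, 111 and 151 CPM at 24 months, 106, 118 and 158 CPM at 26 months and 99.4, 122 and 173 CPM at 28 months. Of the mice of 28 months, 4 of 9 lay above the 8-month range and none below it. Echs1 was called against 22 months (log2 fold change 0.34 ± 0.10 (SE), edgeR FDR 0.00563) and not against 8 months (0.29 (edgeR FDR 0.013)), while DESeq2 and limma called it against 8 months too.

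Of the 5 genes for unsaturated and peroxisomal fatty acids, 2 were lower at 28 months (40%, beside 18.7% of all genes) and 0 higher (beside 21%). Without replicate 3 of 8 months Decr1 lost the call, which left Acaa1a. Decr1, the dienoyl-CoA reductase needed for polyunsaturated chains (ENSMUSG00000028223, chromosome 4, 15917240 to 15945507), was called against 8 months (log2 fold change -0.40 ± 0.11 (SE), edgeR FDR 0.00267) and against 22 months (log2 fold change -0.36 ± 0.11 (SE), edgeR FDR 0.00881). In the order lowest, median and highest, Decr1 levels were 143, 159 and 229.6 CPM at 8 months, 129, 149.9 and 185 CPM at 18 months and 149, 157 and 194 CPM at 22 months. In older mice Decr1 levels were 112, 149 and 172 CPM at 24 months, 81.1, 148 and 177 CPM at 26 months and 86.1, 128 and 164 CPM at 28 months. Decr1 lay below the 8-month range in 7 of 9 mice of 28 months. Acaa1a, the peroxisomal thiolase (ENSMUSG00000036138, chromosome 9, 119339676 to 119350299), was below the 8-month median in 9 of 9 mice and below the range in 6. Acaa1a had lowest, median and highest levels of 36.9, 42.9 and 47.2 CPM at 8 months, 38.3, 44.2 and 56.3 CPM at 18 months and 38.5, 42.5 and 48.7 CPM at 22 months. For the older groups these were 35.7, 39.4 and 41.9 CPM at 24 months, 29.5, 39.7 and 43.1 CPM at 26 months and 27.7, 33.8 and 41.9 CPM at 28 months. Its change was small in size and tight between mice (log2 fold change -0.32 ± 0.08 (SE), edgeR FDR 0.00058), and it was called against 22 months too (log2 fold change -0.32 ± 0.08 (SE), edgeR FDR 0.00113). Acaa1b, a near-identical neighbor with which it shares reads, had a log2 fold change of -0.45 (edgeR FDR 0.00276), and the counting divides shared reads evenly, so the values of both are uncertain. Ech1, Eci1 and Eci2, which isomerize double bonds, were not called, with log2 fold changes of -0.30 (edgeR FDR 0.0458), -0.25 (edgeR FDR 0.042) and 0.15 (edgeR FDR 0.153).

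Etfb, the smaller subunit of the electron transfer flavoprotein (ENSMUSG00000004610, chromosome 7, 43444083 to 43457800), was lower at 28 months (log2 fold change -0.30 ± 0.09 (SE), edgeR FDR 0.00496), and its partners were not called. The lowest, median and highest Etfb levels were 113, 136 and 207 CPM at 8 months, 114, 137 and 175 CPM at 18 months and 119, 137 and 169 CPM at 22 months. The corresponding Etfb values were 116, 134 and 143 CPM at 24 months, 112, 137 and 142 CPM at 26 months and 98.9, 109 and 143 CPM at 28 months. At 28 months 5 of 9 mice lay below the 8-month range, and the highest 8-month value belongs to replicate 3, without which the log2 fold change was -0.20, edgeR FDR 0.037. Etfa and Etfdh had log2 fold changes of -0.17 (edgeR FDR 0.176) and -0.17 (edgeR FDR 0.228). The log2 ratio of Etfb to Etfa differed by -0.13 on the log2 scale (exact permutation p = 0.239, adjusted over 12 ratio tests 0.239) between 28 and 8 months, so that unequal change of the subunits was not detectable with these mice.

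In the carnitine shuttle, the inner-membrane enzyme was lower and the outer-membrane enzyme was not called. Cpt2, which hands the acyl group back to coenzyme A inside the mitochondrion (ENSMUSG00000028607, chromosome 4, 107903981 to 107923610), fell at 28 months against 8 months (log2 fold change -0.49 ± 0.12 (SE), edgeR FDR 0.000606) and against 22 months (log2 fold change -0.40 ± 0.12 (SE), edgeR FDR 0.00682). From the lowest mouse over the median to the highest, Cpt2 stood at 60.8, 69.4 and 94.0 CPM at 8 months, 57.6, 68.7 and 92.7 CPM at 18 months and 60.4, 63.9 and 88.9 CPM at 22 months. Later it stood at 43.0, 60.7 and 71.8 CPM at 24 months, 35.3, 61.9 and 71.8 CPM at 26 months and 37.3, 52.0 and 70.5 CPM at 28 months. Of the mice of 28 months, 7 of 9 lay below the 8-month range. Cpt1b, the muscle form that admits fatty acids to the shuttle, ranged over 183 to 219 CPM at 8 months and 137 to 210.0 CPM at 28 months (log2 fold change -0.19 (edgeR FDR 0.0583)). It made up 95.8% ± 0.958 (SD, n = 8) of the TPM of Cpt1a and Cpt1b at 8 months and 94.9% ± 2.74 (SD, n = 9) at 28 months. The liver form Cpt1a had a log2 fold change of 0.05, 95% interval -0.30 to 0.40. The log2 ratio of Cpt2 to Cpt1b differed by -0.30 on the log2 scale (exact permutation p = 0.00214, adjusted over 12 ratio tests 0.00428) at 28 against 8 months, and 8 of 9 mice were below the 8-month mean. Against 22 months the ratio differed by -0.17 on the log2 scale (exact permutation p = 0.0304, adjusted over 12 ratio tests 0.0364), below the 22-month mean in 8 of 9 mice. As for the other pairs, these p-values add no separate support.

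Acacb, the mitochondrial acetyl-CoA carboxylase that makes malonyl-CoA (ENSMUSG00000042010, chromosome 5, 114146535 to 114250761), moved the other way. In the order lowest, median and highest, Acacb levels were 275, 405 and 551 CPM at 8 months, 289.7, 439.5 and 514 CPM at 18 months and 335, 406 and 575 CPM at 22 months. In older mice Acacb levels were 304, 431 and 519 CPM at 24 months, 381, 517 and 697 CPM at 26 months and 449, 587 and 811 CPM at 28 months. All 9 mice of 28 months lay above the 8-month median, and 6 above the 8-month range. Acacb was called against 8 months (log2 fold change 0.52 ± 0.13 (SE), edgeR FDR 0.00087) and against 22 months (log2 fold change 0.47 ± 0.13 (SE), edgeR FDR 0.00361), and at 26 months it stood just outside the threshold (0.42 (edgeR FDR 0.0105)). Mlycd, the decarboxylase that removes malonyl-CoA, was not called, with a log2 fold change at 28 against 8 months of -0.14, 95% interval -0.37 to 0.08. Within mice, the log2 ratio of Acacb to Mlycd differed by 0.69 on the log2 scale (exact permutation p = 0.00259, adjusted over 12 ratio tests 0.00444) between 28 and 8 months, higher in 9 of 9 mice. It differed by 0.61 on the log2 scale (exact permutation p = 0.00436, adjusted over 12 ratio tests 0.00654) between 28 and 22 months, again in 9 of 9. The pair was picked with the values of both genes known, so these p-values add no separate support.

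Among the synthetases that activate fatty acids, Acsl6 rose in the old mice and 0 of the other 4 were called. Acsl6, a form known mainly from brain and also found in muscle (ENSMUSG00000020333, chromosome 11, 54303798 to 54364756), was the member with the lowest FDR. Acsl6 had lowest, median and highest levels of 35.5, 39.6 and 45.9 CPM at 8 months, 35.2, 41.5 and 51.0 CPM at 18 months and 37.1, 50.7 and 63.9 CPM at 22 months. For the older groups these were 50.6, 55.8 and 92.1 CPM at 24 months, 48.0, 62.4 and 145 CPM at 26 months and 55.4, 78.6 and 148 CPM at 28 months. Every mouse of 24, 26 and 28 months lay above every mouse of 8 months, a separation shared by 0.334%, 1.49% and 2.46% of all genes in the upward direction. The other 36 members overlapped in all 3 comparisons. Acsl6 was higher at 26 months (log2 fold change 0.84 ± 0.16 (SE), edgeR FDR 0.000193) and at 28 months (log2 fold change 1.05 ± 0.16 (SE), edgeR FDR 1.89e-06, a fold of 2.08), and against 22 months on the same feeding schedule (log2 fold change 0.73 ± 0.16 (SE), edgeR FDR 0.000518). At 24 months it missed the threshold (0.67 (edgeR FDR 0.0197)), where DESeq2 and a fit on those 2 ages alone called it. The highest values came from replicate 1 of 26 months and replicate 5 of 28 months, and without the latter the log2 fold change against 8 months was 0.91, edgeR FDR 9.57e-06.

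Acsl1, the main muscle synthetase for fatty acids bound for oxidation, was below the 8-month median in 9 of 9 mice of 28 months, but its log2 fold change did not pass the test (-0.22 (edgeR FDR 0.122)). Its share of the summed TPM of the 5 synthetases was 76.0% ± 4.18 (SD, n = 8) at 8 months and 66.1% ± 6.09 (SD, n = 9) at 28 months, while the share of Acsl6 went from 8.13% ± 1.67 to 16.9% ± 5.46. The log2 ratio of Acsl6 to Acsl1 in a mouse differed by 1.21 on the log2 scale (exact permutation p = 0.000123, adjusted over 12 ratio tests 0.00148) between 28 and 8 months. It differed by 0.86 on the log2 scale (exact permutation p = 0.000987, adjusted over 12 ratio tests 0.00237) between 28 and 22 months, higher in 9 of 9 mice both times. The rise of Acsl6 was known when this pair was picked, so these p-values add no separate support. Acsl3, Acsl4 and Acsl5 had log2 fold changes at 28 against 8 months of 0.17, 95% interval -0.08 to 0.41, 0.01, 95% interval -0.17 to 0.19 and -0.15, 95% interval -0.33 to 0.04.

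**Figure D2:**
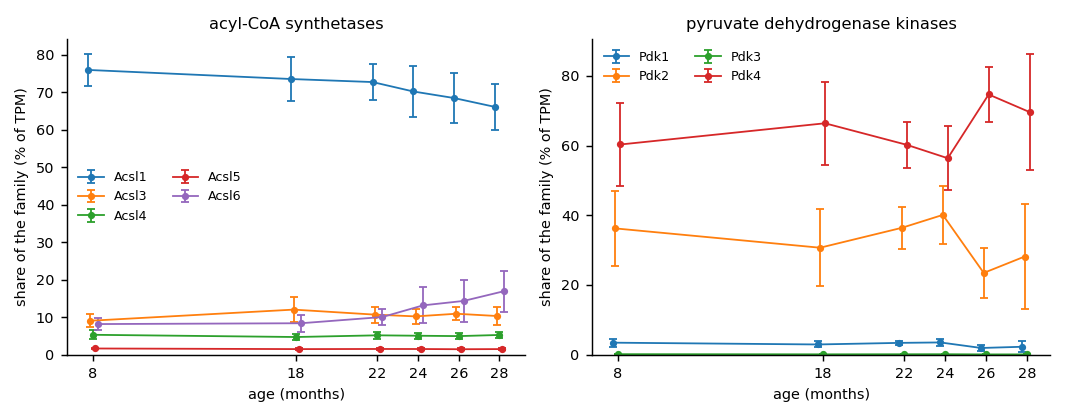
Share of each acyl-CoA synthetase (left) and each pyruvate dehydrogenase kinase (right) in the summed TPM of its family, by age in months, as means with SD over 8 or 9 mice. The share of Acsl6 went from 8.13% to 16.9% between 8 and 28 months, and Pdk4 held the largest share of the kinases at every age.

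At 28 against 8 months 0 of 5 uptake genes were called by edgeR (2 had an unadjusted p under 0.05), beside 39.6% of all genes, although Fabp3 had the most negative log2 fold change of all 37 members. Fabp3 ranged over 278 to 988 CPM at 8 months, 326 to 686 CPM at 22 months and 118 to 475 CPM at 28 months, with medians of 446, 427 and 341 CPM. Of the mice of 28 months, 4 of 9 lay below the 8-month range, and the difference missed the threshold (log2 fold change -0.73 ± 0.26 (SE), edgeR FDR 0.0157). Cd36, the fatty acid translocase, had a positive log2 fold change that was not called, from a median of 371 CPM at 8 months to 436 CPM at 28 months (0.40 (edgeR FDR 0.0462)), and 8 of 9 mice lay above the 8-month median. The log2 fold changes of Lpl and Slc27a1 at 28 against 8 months were 0.25, 95% interval -0.14 to 0.65 and 0.01, 95% interval -0.21 to 0.22. Angptl4 was too variable for a narrow bound, with -0.19, 95% interval -0.83 to 0.46, and ranged over 5.61 to 16.0 CPM at 8 months and 2.32 to 18.2 CPM at 28 months.

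Of the fuel-switch genes, Acot2 was called at 28 months, whereas Pdk4, with a change of similar size, and Ucp3 were not. Acot2, the mitochondrial thioesterase that releases free fatty acids from acyl-CoA (ENSMUSG00000021226, chromosome 12, 83987861 to 83993873), spread widely in the oldest mice. The lowest, median and highest Acot2 levels were 10.4, 18.4 and 23.0 CPM at 8 months, 12.6, 15.8 and 23.8 CPM at 18 months and 13.6, 18.2 and 25.1 CPM at 22 months. The corresponding Acot2 values were 10.6, 13.8 and 19.7 CPM at 24 months, 16.4, 21.4 and 71.2 CPM at 26 months and 10.3, 22.0 and 101 CPM at 28 months. Only 4 of the 9 mice of 28 months lay above the 8-month range and 1 lay below it, so the rise belongs to part of the group. It was called against 8 months (log2 fold change 1.04 ± 0.30 (SE), edgeR FDR 0.00301) and against 22 months (log2 fold change 0.97 ± 0.30 (SE), edgeR FDR 0.00739). Without replicate 2 of 28 months, which held the highest value, the log2 fold change against 8 months was 0.66, edgeR FDR 0.0348. Acot1, a near-identical neighbor that shares reads with Acot2, held 23.3% ± 1.23 (SD, n = 8) of the TPM of both at 8 months and 24.4% ± 3.44 (SD, n = 9) at 28 months and had a log2 fold change of 1.19 (edgeR FDR 0.00229), so the split between them is uncertain.

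Pdk4 had medians of 1481 CPM at 8 months, 1312 CPM at 24 months, 2418 CPM at 26 months and 2188 CPM at 28 months. The ranges were 371 to 2038 CPM at 8 months and 459 to 6310.0 CPM at 28 months. Of the 9 mice of 28 months, 6 lay above the 8-month range, 0 below it and 7 above its median. At 26 months 7 of 9 mice lay above that range and 8 above its median. The difference missed the threshold at 26 months (log2 fold change 1.05 ± 0.33 (SE), edgeR FDR 0.0119), at 28 months (log2 fold change 0.90 ± 0.33 (SE), edgeR FDR 0.0181) and against 22 months (log2 fold change 1.01 ± 0.33 (SE), edgeR FDR 0.0111), while DESeq2 called it at 26 months and against 22 months. The other kinases had log2 fold changes at 28 against 8 months of -0.28 (edgeR FDR 0.0114) for Pdk1, 0.10 (edgeR FDR 0.207) for Pdk2 and -0.55 (edgeR FDR 0.0286) for Pdk3. Pdk4 held 60.3% ± 11.9 (SD, n = 8) of kinase TPM at 8 months and 69.6% ± 16.5 (SD, n = 9) at 28 months. Ucp3, the muscle uncoupling protein, had a log2 fold change of -0.12, 95% interval -0.65 to 0.41.

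The 2 lipases of stored triglyceride had log2 fold changes of opposite sign, and only Pnpla2 was called. Pnpla2, which takes the first fatty acid off triglyceride (ENSMUSG00000025509, chromosome 7, 141455198 to 141460743), was higher from 26 months on. From the lowest mouse over the median to the highest, Pnpla2 stood at 171, 224 and 289 CPM at 8 months, 202, 220.1 and 274 CPM at 18 months and 171, 216 and 278 CPM at 22 months. Later it stood at 176, 226 and 244 CPM at 24 months, 228, 295 and 474 CPM at 26 months and 215, 314 and 655 CPM at 28 months. At 28 months 8 of 9 mice lay above the 8-month median and 5 above the range. It was called at 26 months (log2 fold change 0.55 ± 0.15 (SE), edgeR FDR 0.00463), at 28 months (log2 fold change 0.67 ± 0.15 (SE), edgeR FDR 0.000258) and at 28 against 22 months (log2 fold change 0.68 ± 0.15 (SE), edgeR FDR 0.000414). Lipe, the hormone-sensitive lipase that acts on diglyceride, lay below the 8-month median in 9 of 9 mice of 28 months but was not called (log2 fold change -0.34 ± 0.14 (SE), edgeR FDR 0.0336). The log2 ratio of Pnpla2 to Lipe differed by 0.92 on the log2 scale (exact permutation p = 0.000782, adjusted over 12 ratio tests 0.00234) between 28 and 8 months and differed by 0.79 on the log2 scale (exact permutation p = 0.000617, adjusted over 12 ratio tests 0.00234) between 28 and 22 months, higher in 9 of 9 mice both times. This pair too was chosen after the members' values were known, so its p-values add no separate support. Lipe is also an adipocyte gene, and of 7 adipocyte markers 5 were lower (71.4%, beside 18.7% of all genes) and 0 higher at 28 against 8 months. At 28 against 22 months 2 were lower (28.6%, beside 11.5% of all genes). The summed level of the 7 was 521 to 865 TPM at 8 months and 372 to 764 TPM at 28 months. Most of the sum is Fabp4, with a mean of 421 TPM at 8 months and 375 TPM at 28 months. Adipoq fell from a mean of 39.2 to 14.9 TPM and Plin1 from 15.9 to 4.74 TPM, so the sum largely tracks Fabp4. Among the 7, Lep was at 0 in at least 1 mouse of 28 months, and Adipoq and Plin1 were above 0 in every mouse. From mouse to mouse within ages, Lipe rose with this sum, by 0.53 ± 0.09 (SE), edgeR FDR 0.000428, on the log2 scale for 1 log2 unit more of the sum. The part of adipocytes in the difference of Lipe between ages was not tested.

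**Figure D3:**
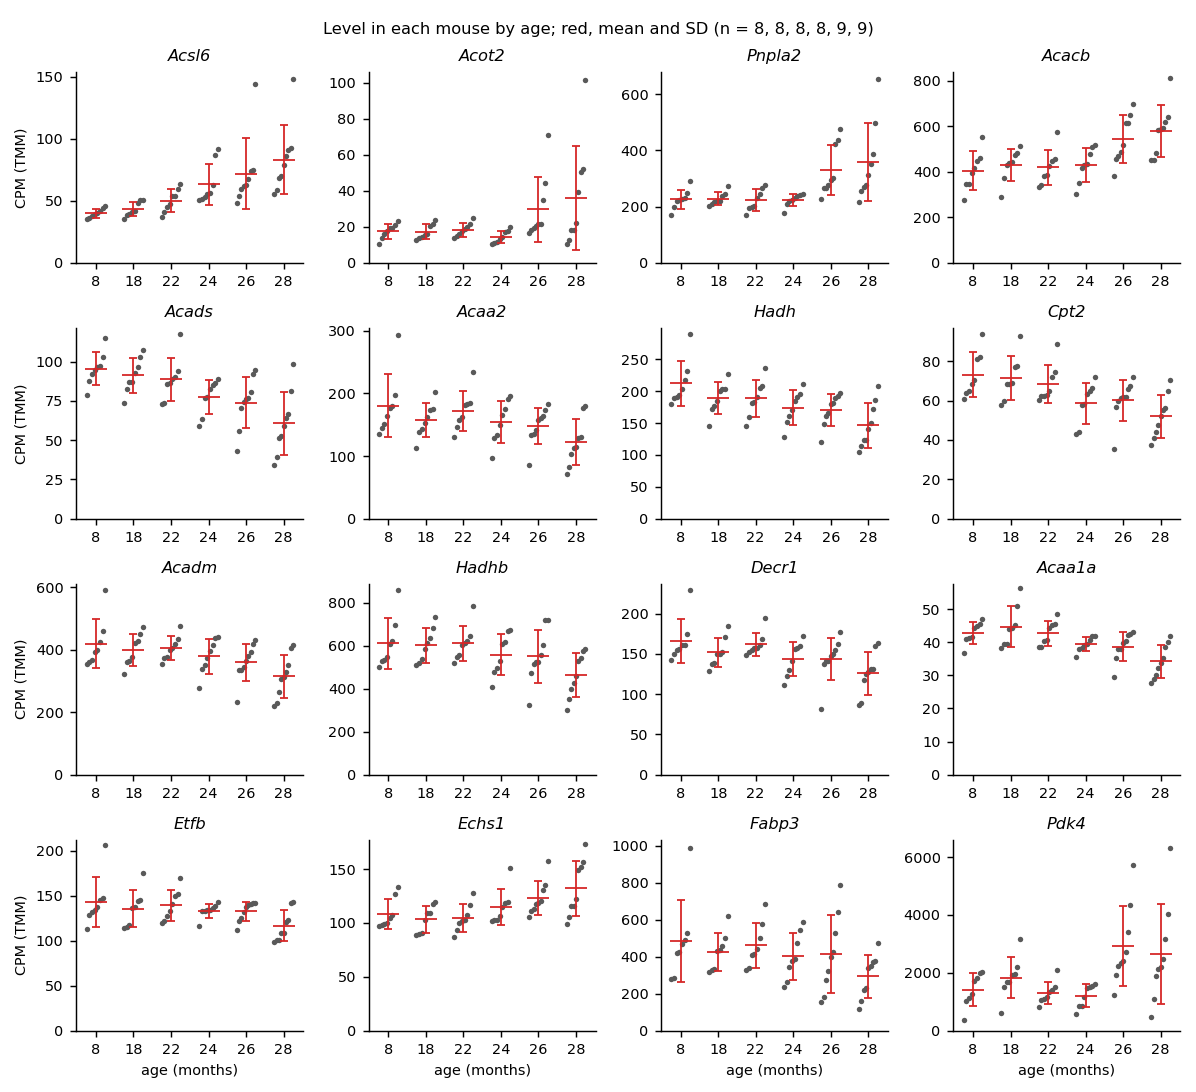
Level of 16 members in every mouse (gray points, CPM with TMM scaling, axes from 0) by age in months, with the mean and SD of each age in red. Acsl6 is the panel in which all mice of 24 to 28 months lie above all mice of 8 months, whereas Acot2 and Pdk4 fan out at 26 and 28 months.

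The oldest mice differed among themselves in how many members had left the 8-month range. At 28 months replicate 5 had 24 of 37 members below that range and 6 above it, replicate 1 had 21 below and 8 above, and replicate 4 had 21 below and 1 above. Replicate 9 had 19 below and 3 above. Of all 12586 genes, 27.7%, 27.6%, 15.6% and 22.9% lay below the 8-month range in these 4 mice and 29.6%, 29.9%, 17.4% and 25.4% above it. Over all genes the 2 directions were thus similar in size, whereas more members lay below than above. For replicate 4 the shares of all genes lie within those of mice of 18 months given below. Replicates 3 and 6, by contrast, had 2 below and 2 above, and 1 below and 2 above, and 12.5% and 11.9% of all genes lay below the range in them. Replicate 2 had 11 below and 13 above, and replicates 7 and 8 had 8 below and 9 above, and 9 below and 9 above, beside 32.7%, 22.3% and 23.9% of all genes below it and 34%, 25.4% and 25.6% above it. Single mice of younger groups also stood low, with 24 members below the range in replicate 1 of 24 months and 22 in replicate 1 of 26 months (beside 16.6% and 26.8% of all genes), so a low profile was not confined to 28 months. The range of 8 mice is a small base, and mice of 18 months already had 0 to 13 members below it and 1 to 6 above it, with 4.96% to 19.1% of all genes below it and 5.38% to 19.8% above it.

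**Figure D4:**
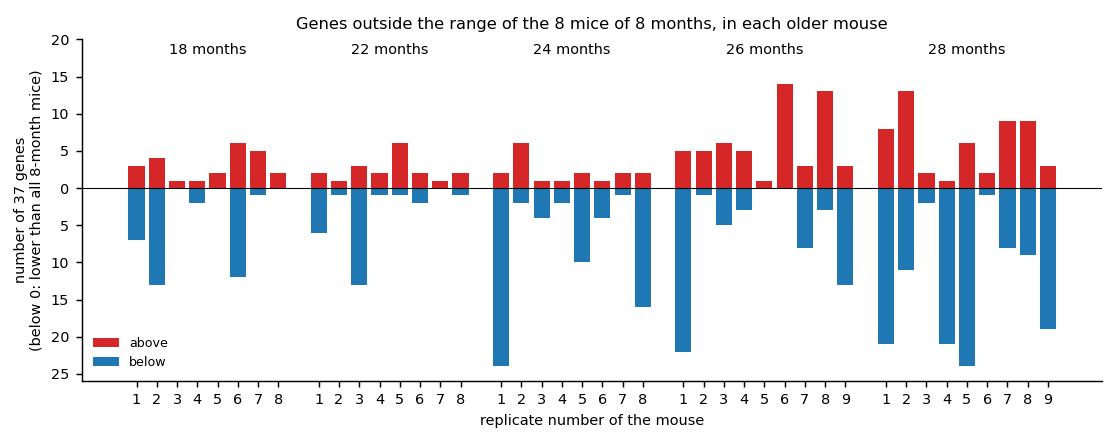
For each older mouse (bars, replicate numbers within each age on the x axis), the number of the 37 genes above the highest 8-month mouse (red, upward) and below the lowest (blue, downward). At 28 months the bars below run from 1 gene in replicate 6 to 24 genes in replicate 5.

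Within ages, a group of members moved with Pdk4 from mouse to mouse. Pdk4 was taken as the anchor after its spread had been seen, and each gene was tested against the deviation of log2(Pdk4 CPM + 1) from the mean of its age, in 1 edgeR fit over 12585 genes with FDR below 0.01. Of the other 36 members 7 rose with Pdk4 (19.4%, beside 6.9% of all genes) and 0 fell (beside 3.57%), with 13 and 1 at an unadjusted p under 0.05. They were Acot2, Angptl4, Ucp3, Cd36, Pnpla2, Mlycd and Eci2, of which several are classical targets of PPAR receptors, as Pdk4 is. For 1 log2 unit more of Pdk4, the log2 change was 0.67 ± 0.08 (SE), edgeR FDR 4.41e-08 for Acot2, 0.67 ± 0.10 (SE), edgeR FDR 1.3e-05 for Angptl4 and 0.67 ± 0.08 (SE), edgeR FDR 4.41e-08 for Ucp3. It was 0.27 ± 0.06 (SE), edgeR FDR 0.000779 for Cd36 and 0.26 ± 0.05 (SE), edgeR FDR 0.000192 for Pnpla2.

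For Ucp3, Pearson's r was 0.786 and Spearman's rho 0.786 (50 mice, permutation p = 1e-05 and 1e-05 within ages), and r was 0.724 without the 2 mice farthest from the median of Pdk4. The value 1e-05 is the smallest that 100000 permutations can give. Within single ages the r of Ucp3 ran from 0.661 to 0.953. For Acot2, Pearson's r was 0.774 and Spearman's rho 0.714 (50 mice, permutation p = 1e-05 and 1e-05 within ages), and r was 0.738 without the 2 mice farthest from the median of Pdk4. Its r ran from 0.470 to 0.945 within ages. The r of Angptl4, 0.671 over all mice, was positive in 6 of 6 ages too, with 0.434 as the lowest. None of the 9 beta oxidation enzymes was among those called, with slopes on Pdk4 from -0.11 ± 0.06 (SE), edgeR FDR 0.146 in Acads to 0.14 ± 0.05 (SE), edgeR FDR 0.0666 in Acadl. Of the 9, Acadl and Echs1 (0.10 ± 0.04 (SE), edgeR FDR 0.056) had an unadjusted p under 0.05, both with a positive slope. Acadm stood nearest to 0 (-0.00 ± 0.05 (SE), edgeR FDR 0.994). These slopes pool the 6 ages, and within single ages the r of these enzymes took both signs. At 8 and 28 months r was 0.571 and -0.438 for Acadm, 0.497 and -0.606 for Hadh and 0.458 and -0.536 for Acaa2. The difference between ages was not tested. In all, 36 relations with Pdk4 were computed, and their adjusted values are those over all genes of the edgeR fit.

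**Figure D5:**
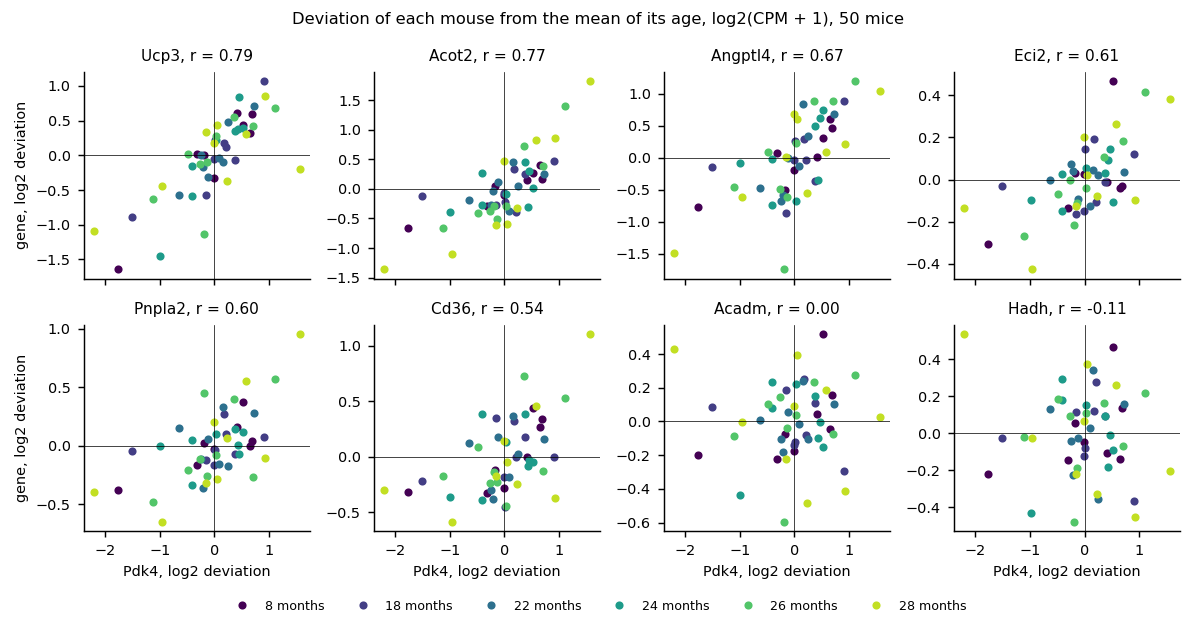
Deviation of each of 50 mice from the mean of its age, in log2(CPM + 1), for Pdk4 (x axis) and 8 other members (y axis), colored by age. Ucp3 rises with Pdk4 (r = 0.786), and Hadh does not over all mice (r = -0.109), with an r from -0.606 to 0.497 within ages.

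A larger set of members followed the slow-fiber genes from mouse to mouse. The summed TPM of 9 slow-fiber markers (such as Myh7, Myl2 and Tnnc1) entered an edgeR fit in the same way, as the deviation of its log2 from the mean of its age. The 9 also include Myh2, the myosin of fast oxidative fibers, so the sum is not of slow-fiber genes alone. Of 37 members 17 rose with it (45.9%, beside 2.7% of all genes) and 0 fell (beside 0.859%), with 23 and 2 at an unadjusted p under 0.05. For 1 log2 unit more of the sum, the log2 change was 0.49 ± 0.08 (SE), edgeR FDR 2.26e-05 for Fabp3, 0.46 ± 0.05 (SE), edgeR FDR 2.9e-09 for Lpl and 0.30 ± 0.06 (SE), edgeR FDR 0.000274 for Cd36. It was 0.24 ± 0.03 (SE), edgeR FDR 3.44e-06 for Acsl1 and 0.21 ± 0.04 (SE), edgeR FDR 0.000224 for Hadha. The others were Slc27a1, Cpt1b, Cpt2, Acadl, Acadm, Acadvl, Hadhb, Acaa2, Ech1, Eci1, Etfa and Etfdh. The strongest correlation was that of Lpl (r = 0.803, rho = 0.811, permutation p = 1e-05 for both, r = 0.788 without the 2 farthest of 50 mice). In these correlations 21 of 37 members were positive and 2 negative with adjusted permutation p-values under 0.05 for both r and rho. The negative ones were Acsl4 (r = -0.473, rho = -0.445) and Acsl6 (r = -0.382, rho = -0.432), which the edgeR fit did not call. Against sums of 7 adipocyte and 8 macrophage markers, 1 member (Lipe) and 0 members were called, beside 0.723% and 3.32% of all genes. An unadjusted p under 0.05 was reached by 13 members with the adipocyte sum, all with a positive slope, and by 2 members with the macrophage sum. In correlations with the adipocyte sum, 6 of 37 members had adjusted permutation p-values under 0.05 for both r and rho, all positive. As given above, most of the adipocyte sum is Fabp4.

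The slow-fiber markers themselves were not called lower at 28 months. At 28 against 8 months 0 of 9 were called, beside 39.6% of all genes, and 3 had an unadjusted p under 0.05. All 9 had a positive log2 fold change (median 0.56), and none was at 0 in any mouse. Their sum ranged over 587 to 3204 TPM at 8 months (median 1864) and 1153 to 5004 TPM at 28 months (median 2542). An alternative chosen after seeing the data put the log2 of this sum into the fit of ages. Many members rise with the sum, and its median was higher at 28 months, so such a fit lowers their log2 fold changes by construction. The counts from it therefore add no separate support. At 28 against 8 months 19 members were then called, 16 lower (43.2%) and 3 higher (8.11%), beside 17.8% and 20.1% of all genes. Fabp3 became one of the lower members (-1.02 (edgeR FDR 6.03e-05)), as did Acadvl (-0.42 (edgeR FDR 0.000251)), Acsl1 (-0.37 (edgeR FDR 0.000579)), Cpt1b (-0.29 (edgeR FDR 0.00175)), Ech1, Eci1 and Etfa, and Acot2 lost its call (0.84 (edgeR FDR 0.017)). At 28 against 22 months 18 members were called with the sum in the fit, 16 lower (43.2%) and 2 higher (5.41%), beside 10.2% and 14.4% of all genes. The higher members were then Acsl6 (0.83 (edgeR FDR 0.000125)) and Pnpla2 (0.57 (edgeR FDR 0.00164)). What sets the sum apart between mice was not tested.

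Among the regulators of the pathway, 5 of 11 were called at 28 against 8 months, 2 lower (18.2%) and 3 higher (27.3%), near the 18.7% and 21% of all genes. Esrra, the estrogen-related receptor that drives oxidative genes, was lower (log2 fold change -0.71 ± 0.16 (SE), edgeR FDR 0.000245), with lowest, median and highest levels of 85.0, 120.2 and 141 CPM at 8 months and 36.0, 69.5 and 125 CPM at 28 months. Its groups overlap at the upper end of the old mice. Rxrg, a partner of the PPAR receptors, was lower too (log2 fold change -0.51 ± 0.14 (SE), edgeR FDR 0.00182), and Ppard, the PPAR form of oxidative muscle, was higher (log2 fold change 0.55 ± 0.13 (SE), edgeR FDR 0.000451). Foxo1, a fasting-responsive factor that induces Pdk4, had the largest rise (log2 fold change 1.82 ± 0.36 (SE), edgeR FDR 6.46e-05), with 20.1, 44.5 and 72.0 CPM at 8 months and 37.2, 180.4 and 329 CPM at 28 months. Klf15, a factor of the fasting response, rose as well (log2 fold change 1.42 ± 0.20 (SE), edgeR FDR 3.09e-07), and its lowest, median and highest levels were 35.1, 44.0 and 54.0 CPM at 8 months and 54.1, 112 and 198 CPM at 28 months, so that the groups do not overlap but nearly touch. Ppara (0.46 (edgeR FDR 0.178)) and the coactivator Ppargc1a (0.77 (edgeR FDR 0.0523)) were not called against 8 months, and Ppargc1a was higher than at 22 months (log2 fold change 1.17 ± 0.35 (SE), edgeR FDR 0.00597).

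Among the neighboring parts of fuel metabolism, the citrate cycle held the highest share of lower genes. Of 17 citrate cycle genes 11 were lower and 0 higher at 28 against 8 months (64.7%, beside 18.7% of all genes lower), led by Suclg1, a subunit of succinyl-CoA ligase (log2 fold change -0.48 ± 0.09 (SE), edgeR FDR 3.59e-05), and Sdhb, the iron-sulfur subunit of succinate dehydrogenase (log2 fold change -0.44 ± 0.12 (SE), edgeR FDR 0.00229). Without replicate 3 of 8 months 6 were lower. Against 22 months, however, 1 of the 17 was called (5.88%, lower, beside 11.5% of all genes lower). Without replicate 3 of 28 months 9 were called, without replicate 6 of 28 months 3 and without replicate 1 of 22 months 2. Of 9 genes of the pyruvate dehydrogenase complex and its kinases 3 were lower (33.3%) and 0 higher at 28 against 8 months, with Dlat (-0.47 (edgeR FDR 0.00029)) and Pdhb (-0.42 (edgeR FDR 0.000272)), subunits of the complex, the most so. Against 22 months 0 of the 9 were called by edgeR or DESeq2 (5 had an unadjusted p under 0.05), beside 27.7% of all genes in edgeR, although 4 were lower without replicate 3 of 28 months. Of 32 other genes of fatty acid metabolism 8 were lower (25%) and 3 higher (9.38%) at 28 against 8 months, 34.4% in all beside 39.6% of all genes. The largest changes were in enzymes of synthesis, Scd1, the stearoyl-CoA desaturase (log2 fold change -1.78 ± 0.37 (SE), edgeR FDR 9.69e-05), and Fasn, the fatty acid synthase (log2 fold change -1.26 ± 0.38 (SE), edgeR FDR 0.00528). These 2 differences were -0.63 (edgeR FDR 0.155) and 0.02 (edgeR FDR 0.966) against 22 months, on the same feeding schedule but with a shorter time on it. Scd1 and Fasn are also adipocyte genes, and the fall of the adipocyte markers given above runs beside them; its part was not tested.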

How the data were processed

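The data are poly(A) RNA-seq libraries of gastrocnemius muscle from 50 mice of 6 ages. The authors trimmed the reads with Cutadapt 1.9.1 and assigned them with kallisto 0.43.1, keeping the strand, to protein-coding transcripts on GRCm38, dividing a read evenly among the transcripts it fits. The deposited counts are whole-number sums of these transcript counts per gene. The deposited TPM were made by the authors by dividing transcript counts by length, scaling and summing per gene. Near-identical paralogs can therefore exchange reads.

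Here, groups came from the age in the sample labels. A gene was kept when it reached 1 CPM in 8 mice or more, which left 12586 genes. The 6 ages entered a single edgeR model (version 4.0.16, R 4.3.3), scaled by TMM, and contrasts were tested by quasi-likelihood. P-values were adjusted after Benjamini and Hochberg across those genes, with a threshold of 0.01. Total counts ran from 13607229 to 21267375 per mouse. SE is the log2 fold change divided by the root of F. Slopes on Pdk4 and on marker sums came from the same kind of fit with age as a term. Ratios of partner genes went through an exact permutation test over mice (two-sided), and correlations used deviations from age means with 100000 permutations within ages (two-sided). Alternatives were DESeq2 1.42.0, limma 3.58.1 on log2(TPM + 1) and log2(TPM + 0.1), other scalings and filters, only the 2 ages compared, a replicate block, an FDR of 0.05, single mice left out and the slow-fiber marker sum as a covariate. Gene positions came from GENCODE on GRCm38. The fits were tested on simulated data.

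The 37 members and all lists were chosen with earlier results of these data known. All members are named, with lowest, median and highest levels per age for those past FDR 0.01 at 28 months against 8 or 22 months. Outside the list, named genes are the main regulators, the paralogs, the other kinases and, for each pathway list, its 2 most changed called genes, and the regulators Ppard and Rxrg were added after their values were seen. Partner ratios, the Pdk4 anchor and the AGGTCA search were also chosen after values were seen. Mice of a group are separate animals. The phenotypes, the rat data and the human data were not analysed here.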

Additional observations from a re-analysis of the deposited data

Results flagged for a closer look

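Of 222 sets of values (37 genes at 6 ages), 29 held a mouse far from the others of its age by Dixon's criterion, 23 at the high and 6 at the low end. Chance alone gives such a value in about 1 of 20 sets, and the sets are not independent, since a mouse enters all 37 genes.

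At 8 months replicate 3 was the outlying highest mouse in 10 genes. It held 988 CPM of Fabp3, 592 CPM of Acadm, 290.2 CPM of Hadh, 294 CPM of Acaa2 and 416 CPM of Ech1. It also held 155 CPM of Eci1, 101 CPM of Eci2, 229.6 CPM of Decr1, 349 CPM of Etfa and 207 CPM of Etfb. Its slow-fiber marker sum was 3204 TPM, beside 587 to 2801 TPM in the other 7 mice. At 22 months replicate 5 was highest in 5 genes, with 439 CPM of Acadl, 117 CPM of Acads, 565 CPM of Hadha, 786 CPM of Hadhb and 194 CPM of Decr1. Its slow-fiber sum of 2341 TPM lay within the 404 to 3004 TPM of the others.

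At 26 months replicate 1 was lowest in 4 genes, with 35.3 CPM of Cpt2, 234 CPM of Acadm, 85.2 CPM of Acaa2 and 81.1 CPM of Decr1, and highest in Acsl6 with 145 CPM. At 28 months replicate 5 was the outlying highest mouse of Acsl6 with 148 CPM, and replicate 2 was highest in Cd36 with 1056 CPM, in Lpl with 1749 CPM and in Acot2 with 101 CPM. That mouse also had the lowest muscle fiber and the highest macrophage, endothelial and adipocyte marker sums of its age. Its endothelial sum was 268 TPM, beside 179.9 to 201 TPM in the others. Most of its adipocyte sum of 764 TPM was Fabp4 (677 TPM), in which it was the highest mouse of its age. In Adipoq, Cfd and Plin1 it was the lowest of its age, so the sum does not mark it as rich in adipocytes. The part of other cells in its values was not tested.

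Single genes stood out in 5 other places. At 18 months these were 769 CPM of Ucp3 in replicate 6 and 49.9 CPM of Lipe in replicate 5, both the highest. At 24 months they were 151 CPM of Echs1, the highest, in replicate 8, and the lowest values of Acsl3 (23.2 CPM, replicate 2) and Etfb (116.0 CPM, replicate 1).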

How the results depend on the processing

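At 28 against 8 months the number of called members was 13, and it stayed between 12 and 14 with upper-quartile or RLE scaling, without the filter, with DESeq2 and with the replicate block. It was 8 with limma on either pseudocount, 7 with only the 2 ages in the fit, 19 with the slow-fiber sum as a covariate, 21 at an FDR of 0.05 and 9 to 16 when single mice were left out. At 28 against 22 months the count of 11 became 7 without the filter, 6 with limma on either pseudocount, 3 with only the 2 ages in the fit (fewer mice then set the spread), 17 at an FDR of 0.05, 18 with the slow-fiber covariate and 5 to 16 when single mice were left out. At 26 against 8 months the count of 2 became 4 with DESeq2, 1 with limma on either pseudocount and 7 at an FDR of 0.05. At 24 against 8 months the count of 0 became 1, Acsl6, with DESeq2, with only the 2 ages, at an FDR of 0.05 and with the slow-fiber covariate. Apart from the shift that the slow-fiber covariate builds in, the cause of these differences was not tested.

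No called member changed direction. Values that did were near 0: with upper-quartile factors Slc27a1 (-0.045), Acsl4 (-0.049) and Cpt1a (-0.0084) against 8 months, and Angptl4 (-0.013) and Acsl4 (-0.063) against 22 months. With the slow-fiber covariate these were Lpl (-0.057) and Slc27a1 (-0.0997) against 8 months and Angptl4 (-0.0497) against 22 months. Against 22 months Cpt1a was 0.0012 without the filter and 0.00075 with DESeq2, and Acsl4 was -0.0044 with only the 2 ages. With single mice left out, values against 8 months ran from -0.032 to 0.063 for Slc27a1, -0.046 to 0.037 for Acsl4 and -0.157 to 0.146 for Cpt1a. Against 22 months they ran from -0.208 to 0.092 for Cpt1a, -0.121 to 0.224 for Angptl4 and -0.051 to 0.055 for Acsl4.

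Mice share replicate numbers across ages. Of 121 pairs of same-numbered mice 52 had a correlation of deviations over 0.1. The mean correlation of these pairs was 0.040 (range -0.607 to 0.43), beside -0.0050 for other pairs. In all, 12 of 50 mice correlated best with their own number. Whether mice of the same number share anything across ages was not tested. With the replicate block 13 members were called at 28 against 8 months, 12 at 28 against 22 months (Acot2 lost, Hadh and Hadhb gained) and 3 at 26 against 8 months, and Slc27a1 was -0.0054 against 8 months. Depth limits little here, since the lowest count of a member was 36 reads.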

Other observations

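The spread of the members between mice of an age was widest in the oldest mice, without a steady rise. The paper reports more heterogeneity at older ages over genes in general. Values over all genes were not set beside these, so the spread is not shown to be particular to the members. The median coefficient of variation over the 37 genes was 18.8% at 8 months, 15.2% at 18 months, 14.2% at 22 months, 16.1% at 24 months, 18.5% at 26 months and 21.1% at 28 months, and no test of these values was made. The most variable member was Fabp3 at 8 months (45.9%), Ucp3 at 18 months (43.5%), Angptl4 at 22 and 24 months (45.2% and 44.9%) and Acot2 at 26 and 28 months (60.7% and 81.0%). Acsl4 varied least at 28 months (11.8%).

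Among 8 macrophage markers 5 were higher (62.5%, beside 21% of all genes) and 0 lower at 28 against 8 months, with a summed level of 174.5 to 301 TPM at 8 months and 271 to 751 TPM at 28 months, none at 0 in any mouse. Without replicate 2 of 28 months 2 of the 8 were higher, and without replicate 8 of 8 months 3 were. Of 6 fibroblast markers 4 were lower (66.7%, beside 18.7% of all genes) and 0 higher, with sums of 746 to 1061 TPM and 604.5 to 826 TPM. Of 7 endothelial markers 1 was lower and 1 higher (28.6% called, below the 39.6% of all genes), with sums of 158 to 249 TPM and 179.9 to 268 TPM.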
